A study of Mus musculus with 8 samples.

Results

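C/EBPα binding was examined in mouse liver around Cebpb and Cebpd, the genes of 2 other members of the C/EBP family. The peaks came from 8 ChIP-seq libraries, all made with the C/EBPα antibody sc-61. Every peak whose midpoint lay in mm9 chr2:167400000-167650000 (around Cebpb) or chr16:15800000-16000000 (around Cebpd) was taken. Peaks of different libraries were joined into sites where 200 bp windows around their midpoints overlapped. This gave 44 sites of 113353 in the whole genome, 35 around Cebpb and 9 around Cebpd.

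C/EBPα, C/EBPβ and C/EBPδ are basic leucine zipper transcription factors that can pair with each other and that bind related DNA sequences. C/EBPα is abundant in resting hepatocytes, whereas Cebpb and Cebpd are known as genes that inflammatory signals switch on in the liver during the acute-phase response. C/EBPβ, whose long and short protein forms are known as LAP and LIP, also takes part in the hepatic response to fasting hormones. Tribbles-1, the product of Trib1, is a pseudokinase known to bring C/EBPα to the COP1 ubiquitin ligase for degradation.

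In the first experiment, mice with a floxed Trib1 gene received 1.5e11 gc (genome copies) of adeno-associated virus (AAV). The vector carried Cre recombinase in the group Trib1_LSKO and was empty in the group Trib1_WT, in which the floxed gene stays intact. The second experiment used wild-type mice given 1e12 gc of AAV, which either expressed C/EBPα (AAV_Cebpa) or was empty (AAV_Null). Each group had 2 libraries. All mice were 8 to 10 weeks old, carried the strain label C57B/6, received a virus by intraperitoneal injection and were fasted for 4 hours before harvest. The labels name no promoter for Cre or C/EBPα in the vectors and do not say whether livers were pooled. The 2 control groups differ in Trib1 allele and in virus dose, and these cannot be told apart. Peak lists hold neither transcripts nor proteins, so the levels of Trib1, Cebpb and Cebpd were not measured.

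The lists held 46348 to 80394 peaks, fewest in AAV_Null replicate 1 and most in AAV_Cebpa replicate 2. Relative depth, read from the spacing of the signal values, was 1.18 and 1.28 in Trib1_LSKO, 1.14 and 1.93 in Trib1_WT, 1.85 and 2.27 in AAV_Cebpa, and 1 and 1.17 in AAV_Null. The weakest listed peak held 7 to 12 tags, depending on the library. Strength is given below as the percentile of the authors' signal value within its own list, where 100 is the strongest peak. Distances are from the approximate gene start given for each locus (mm9 positions 167514500 for Cebpb and 15887000 for Cebpd), upstream meaning lower and downstream higher coordinates. These starts are rounded, so a site within about 1 kb of a gene end cannot be placed inside or outside the gene with certainty.

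The stretch directly before the start of Cebpb is shown because no list held a peak there. A strong peak lay 1.1 kb upstream of the start in all 8 lists. On the other side, a peak about 1.1 kb downstream was in 4 lists only. The 250 bases are from RefSeq (build GRCm38.p6, plus strand, chr2:167688665-167688914), and capitals mark TGACG, the half-site of the cAMP response element, on either strand.

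Cebpb: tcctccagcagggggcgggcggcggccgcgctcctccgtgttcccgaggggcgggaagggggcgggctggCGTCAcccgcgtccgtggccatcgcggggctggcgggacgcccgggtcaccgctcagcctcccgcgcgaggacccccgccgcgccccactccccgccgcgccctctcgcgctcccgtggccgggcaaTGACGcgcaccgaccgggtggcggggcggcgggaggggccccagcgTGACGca

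Guanine and cytosine made up 81.6% of these bases, against a median of 52.4% over 32851 RefSeq promoters of the same length. TGACG occurred 3 times, beginning 180, 53 and 7 bases before the start, and was held by 17.8% of all promoters. The GC box GGGCGG occurred 5 times on the plus strand, 2 of these overlapping each other, and 32.7% of promoters held it. The C/EBP motif TTGCNNAA had no match on either strand (held by 9.56% of promoters), nor had its palindromic form TTGCGCAA (0.164%). TGACGTCA (1.55%), TTCNNNGAA (7.02%), CCAAT (33.8%) and TATAAA (12.4%) had none either. The corresponding sequence of Cebpd was not used here.

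Peaks were more numerous around Cebpb than around Cebpd. The Cebpb window of 250 kb held 20 and 19 peaks in Trib1_LSKO, 23 and 24 in Trib1_WT, 20 and 23 in AAV_Cebpa, and 21 and 20 in AAV_Null. Cutting the genome into 10562 stretches of that length, 93.7% to 98.4% of them held fewer peaks than this window, depending on the library. The median stretch held 2 to 5 peaks. The stretches, here and for Cebpd, ran from the start of each chromosome, with or without genes in them. Windows around other genes were not compared. The Cebpd window of 200 kb held 4 and 5 peaks in Trib1_LSKO, 6 and 5 in Trib1_WT, 1 and 5 in AAV_Cebpa, and 2 and 1 in AAV_Null. Of 13200 stretches of that length, 31% (AAV_Cebpa replicate 1) to 72% (Trib1_WT replicate 1) held fewer, and the median stretch held 1 to 4 peaks. The window was below that median only in AAV_Cebpa replicate 1, with 1 peak against a median of 2.

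The libraries of Trib1_LSKO had 4 fewer peaks around Cebpb than those of Trib1_WT on average (19.5 ± 0.707 against 23.5 ± 0.707, SD, n = 2 each). The groups did not overlap, and the exact two-sided permutation p was 0.333, the smallest that 2 against 2 libraries can give. Around Cebpd the means were 4.5 ± 0.707 in Trib1_LSKO and 5.5 ± 0.707 in Trib1_WT (exact permutation p = 0.667). In the second experiment they were 21.5 ± 2.12 in AAV_Cebpa and 20.5 ± 0.707 in AAV_Null around Cebpb, and 3 ± 2.83 and 1.5 ± 0.707 around Cebpd (exact permutation p = 1 for each). Both of these small surpluses rested on AAV_Cebpa replicate 2, the library with the longest list: without it the differences were -0.5 at either locus. With all lists reduced to the 46348 strongest peaks they were -2.0 around Cebpb and -1.5 around Cebpd. With the strongest 50% of each list they were 3.5 around Cebpb and -0.5 around Cebpd.

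Cebpb was surrounded by a set of sites found in every library. Of its 35 sites, 13 (37.1%) had a peak in all 8 lists, against 24318 of 113353 sites (21.5%) in the genome. The Cebpd window had no such site among its 9. Peak midpoints of the 13 Cebpb sites varied between libraries by a median range of 27 bp. At the other extreme, 7 Cebpb sites and 4 Cebpd sites were found in 1 library only, at percentiles of 7.3 to 59 and 0.1 to 25.9. Of these 11 sites, Trib1_WT replicate 1 held 4, Trib1_WT replicate 2, AAV_Cebpa replicate 2 and AAV_Null replicate 2 held 2 each, and Trib1_LSKO replicate 2 held 1.

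**Figure D1:**
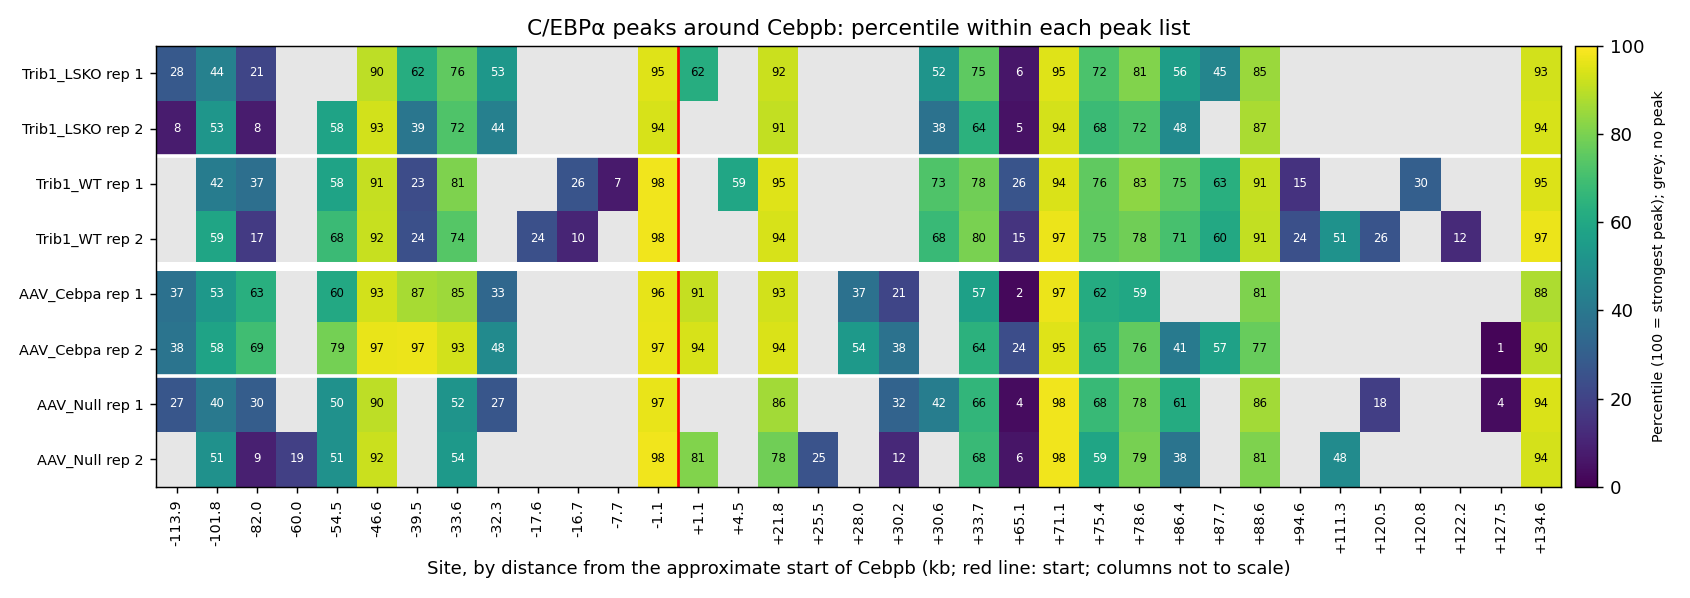
Percentile of each C/EBPα peak within its list at the 35 sites around Cebpb, in order along the chromosome (columns, distance from the approximate gene start in kb, not to scale) and in each of the 8 libraries (rows). Grey cells have no peak; the 13 columns filled in all 8 rows include the site 1.1 kb upstream of the start, at 93.8 to 97.9 in every list.

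Of the sites around Cebpb, one about 1.1 kb upstream of the start (chr2:167513246-167513477) had the highest mean percentile over the 8 libraries, 96.4. It was at percentiles of 95 and 93.8 in Trib1_LSKO, 97.9 and 97.7 in Trib1_WT, 96.2 and 96.7 in AAV_Cebpa, and 96.6 and 97.7 in AAV_Null. The Trib1_LSKO libraries were both below the Trib1_WT libraries, by 3.4 percentile points on average, while those of the second experiment overlapped, although AAV_Cebpa was below AAV_Null with lists of equal length and with percentiles among the sites called in all 4 libraries. It held 121 to 245 tags. Of the 24318 sites found in all 8 lists, 5.61% reached its lowest percentile in every list.

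A second site of similar strength, with a mean of 95.9, lay 71.1 kb downstream (chr2:167585518-167585726) and ranked above the first in 4 of the 8 lists. Its percentiles were 95.2 and 93.5 in Trib1_LSKO, 94.2 and 96.9 in Trib1_WT, 97 and 95.1 in AAV_Cebpa, and 97.7 and 97.9 in AAV_Null. Over the 8 libraries it differed from the site 1.1 kb upstream by a mean of 1.1 percentile points, the closest match among the 44 sites. The next closest were the sites 134.6 kb downstream (3.3 points) and 46.6 kb upstream (4.2 points).

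The other 3 of the 5 strongest sites around Cebpb were likewise present in all lists. The site 46.6 kb upstream (chr2:167467825-167468046) stayed within 90 to 96.8. The site 134.6 kb downstream (chr2:167648954-167649180) was at 93.3 and 93.8 in Trib1_LSKO, 94.6 and 97.2 in Trib1_WT, 87.7 and 90.4 in AAV_Cebpa, and 94.3 and 93.7 in AAV_Null, so that both treated groups ranked it lower than their controls without overlap. The site 21.8 kb downstream (chr2:167536163-167536373) ranked in opposite directions in the 2 experiments. It was at 92 and 90.7 in Trib1_LSKO against 95.1 and 94.1 in Trib1_WT, and at 93.2 and 94.2 in AAV_Cebpa against 86 and 78.2 in AAV_Null.

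Targeting of Trib1 was set against the intact floxed gene as the first comparison. A site was called gained when both treated and neither control libraries had a peak, and lost in the reverse case. Around Cebpb, 2 of 30 sites with a peak in this experiment were gained and 2 were lost in Trib1_LSKO (6.67% each), where 4.74% and 4.86% of the 75289 sites in the genome were. With counts this small, neither share stands apart from its background. The gained sites lay 113.9 kb upstream (percentiles 28 and 7.7 in Trib1_LSKO) and 32.3 kb upstream (53 and 43.6). Both were also found in the 2 AAV_Cebpa libraries and in AAV_Null replicate 1, so they were not absent from all controls. The lost sites lay 16.7 kb upstream (25.8 and 10.4 in Trib1_WT) and 94.6 kb downstream (14.7 and 24.4), and neither had a peak in the second experiment. Around Cebpd, no site of 7 was gained and 1 was lost, 11.3 kb downstream, at 3.3 and 2.2 in Trib1_WT. With 1 control library left out, a peak in the other suffices, and 6 (without Trib1_WT replicate 1) or 5 (without Trib1_WT replicate 2) Cebpb sites counted as lost. Around Cebpd, 2 were lost without Trib1_WT replicate 2 and 1 was gained without Trib1_LSKO replicate 1. Genome shares under these looser calls were not computed, so these counts cannot be set against 4.74% and 4.86%.

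Among sites with a peak in all 4 libraries, those around both genes mostly ranked lower in Trib1_LSKO. Around Cebpb, 9 of 16 such sites were lower in both Trib1_LSKO lists than in both Trib1_WT lists and 1 was higher, and around Cebpd all 4 were lower. The same rule called 36.5% of the 34866 sites of this kind in the genome lower and 20.2% higher, so the genome leaned the same way. With only 16 and 4 sites, the distance from these genome shares was not tested. The median difference was -3.8 percentile points around Cebpb and -10.4 around Cebpd, against -2.4 over the genome. When percentiles were taken only among the sites called in all 4 libraries, the counts stayed at 9 lower and 1 higher around Cebpb and 4 lower around Cebpd, while the genome shares became 32% and 22.8%.

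Of the 9 Cebpb sites that ranked lower, 3 differed by more than 10 percentile points. The site 30.6 kb downstream of Cebpb was at 51.6 and 37.5 in Trib1_LSKO against 72.6 and 67.8 in Trib1_WT. The site 86.4 kb downstream was at 55.6 and 47.7 in Trib1_LSKO against 75 and 71 in Trib1_WT. A weak site 65.1 kb downstream was at 6.2 and 4.9 in Trib1_LSKO against 25.8 and 15.1 in Trib1_WT. The sites 33.7, 75.4 and 88.6 kb downstream differed by -9.4, -5.6 and -4.9 points, and those 1.1 kb upstream and 21.8 and 134.6 kb downstream by -3.4, -3.3 and -2.3. Of the 9 lower sites, 8 lay downstream of the Cebpb start, where 10 of the 16 sites were.

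The site 39.5 kb upstream of Cebpb (chr2:167474821-167475091) was the exception. It was at 62.4 and 39.1 in Trib1_LSKO, against 23.2 and 24.4 in Trib1_WT, a difference of 27 points. In the second experiment it was at 87.1 and 96.9 in AAV_Cebpa and had no peak in either AAV_Null list. It thus ranked higher in Trib1_LSKO without overlap and was gained in AAV_Cebpa, where no AAV_Null percentile exists to compare. Its peaks held 115 and 247 tags in AAV_Cebpa.

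**Figure D2:**
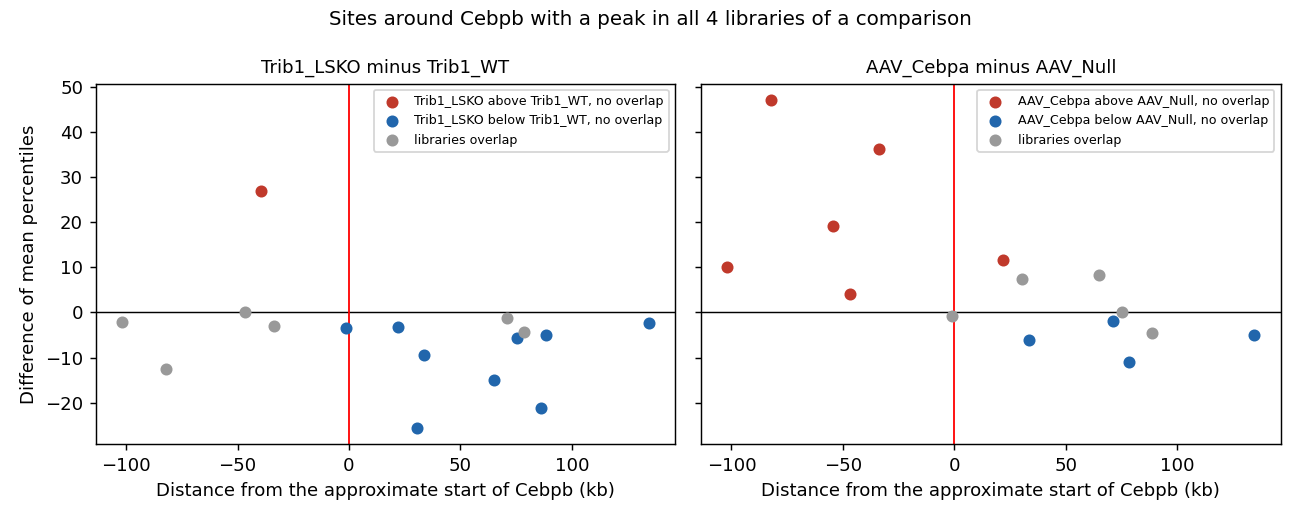
Difference of mean percentiles (treated minus control, vertical axis) against distance from the approximate Cebpb start (kb, horizontal axis), for the sites with a peak in all 4 libraries, in Trib1_LSKO minus Trib1_WT (left, 16 sites) and AAV_Cebpa minus AAV_Null (right, 15 sites). Each dot is 1 site, coloured by whether the libraries of the groups overlap; on the right, 5 of the 6 sites without overlap that ranked higher lie upstream of the start and all 4 that ranked lower lie downstream. With lists of equal length, the right-hand counts upstream become 2 higher and 2 lower, and those downstream 1 higher and 6 lower.

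The second comparison set extra C/EBPα against the empty vector. Around Cebpb, 2 of 28 sites were gained in AAV_Cebpa (7.14%, against 22.1% of the 100278 sites with a peak in this experiment) and none were lost (6.03% in the genome). The gained sites were the one 39.5 kb upstream and one 28 kb downstream, at 37.4 and 53.8 in AAV_Cebpa and in no other list. Around Cebpd, 1 of 6 sites was gained and none were lost. It lay 11.3 kb downstream, at 5.9 and 32 in AAV_Cebpa, and is the same site that was called lost in Trib1_LSKO. With lists of equal length it was not gained, and 2 sites around Cebpb and 1 around Cebpd were lost. Without AAV_Null replicate 1, 4 sites were gained and 3 lost around Cebpb, and without AAV_Null replicate 2, 2 were lost there and 1 around Cebpd. Without AAV_Cebpa replicate 1, 4 sites were gained around Cebpd, and without AAV_Cebpa replicate 2, 1 site was lost around each gene. Genome shares gained and lost were not computed for equal lists or with a library left out. These counts therefore cannot be set against 22.1% and 6.03%, which are from the full lists of all 4 libraries.

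Of the 15 Cebpb sites with a peak in all 4 libraries, 6 (40%) were higher in AAV_Cebpa and 4 (26.7%) were lower, without overlap. In the genome, 39.1% and 27.8% of 27702 sites were, so both shares were close to their background. Higher sites lay 101.8, 82, 54.5, 46.6 and 33.6 kb upstream and 21.8 kb downstream. Lower sites lay 33.7, 71.1, 78.6 and 134.6 kb downstream. The difference between the 2 sides was not tested. The split depends on scaling, since the AAV_Cebpa lists are longer. It was 5 higher and 6 lower with percentiles taken among the sites called in all 4 libraries (30.6% and 40.3% in the genome). With lists of equal length it was 3 higher and 8 lower (25.6% and 48.8%). The sites 82 and 33.6 kb upstream and 21.8 kb downstream stayed higher under both, and the 4 lower sites stayed lower. The site 101.8 kb upstream was called lower with equal lists, and the site 1.1 kb upstream was called lower under both alternatives.

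The widest difference among these 15 sites was at the one 82 kb upstream of Cebpb (chr2:167432345-167432596), with 63.1 and 69.3 in AAV_Cebpa against 29.5 and 8.6 in AAV_Null. In the first experiment this site was at 20.8 and 7.7 in Trib1_LSKO and 36.6 and 16.9 in Trib1_WT, which overlap. The site 33.6 kb upstream (chr2:167480773-167481004) was at 85.2 and 93 in AAV_Cebpa against 51.9 and 54 in AAV_Null, and in the first experiment at 75.6 and 72.4 in Trib1_LSKO and 80.8 and 73.5 in Trib1_WT, again overlapping. The site 54.5 kb upstream was at 60.2 and 79.2 in AAV_Cebpa against 50.4 and 50.6 in AAV_Null. It had a peak in 7 lists, missing from Trib1_LSKO replicate 1. Among the lower sites, the one 78.6 kb downstream was at 59.4 and 76.1 in AAV_Cebpa against 78.1 and 79.3 in AAV_Null, and the one 33.7 kb downstream at 57 and 64.2 against 65.9 and 67.6.

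A site at the body of Cebpb, about 1.1 kb downstream of the start (chr2:167515531-167515760), differed strongly between replicates of the same group. It was at 91.3 and 94.1 in AAV_Cebpa, with 134 and 215 tags. In AAV_Null it was at 80.9 with 86 tags in replicate 2 and had no peak in replicate 1. In Trib1_LSKO it was at 62.4 with 42 tags in replicate 1 and had no peak in replicate 2, and neither Trib1_WT list had it. In every library that held it, the site 1.1 kb upstream ranked above it. The approximate position of the gene runs to 167516000, so this site falls within it or at its end. Peak lists do not show whether all reads aligned at this gene came from liver chromatin, which was not tested, so its percentiles are given as listed signal.

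**Figure D3:**
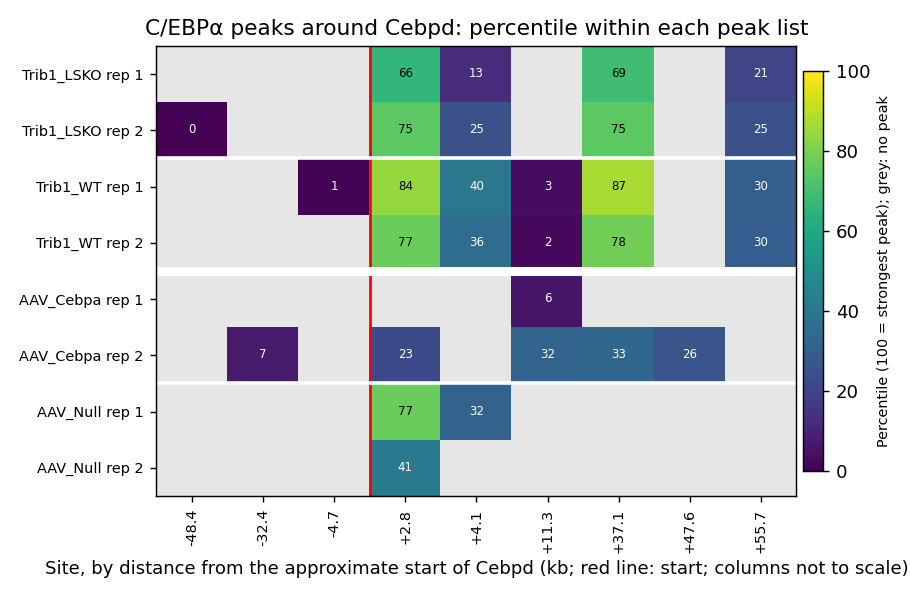
Percentile of each C/EBPα peak within its list at the 9 sites around Cebpd (columns, distance from the approximate gene start in kb, not to scale) in each of the 8 libraries (rows). Grey cells have no peak; the sites 2.8 and 37.1 kb downstream are at 66.1 to 87 in the 4 libraries of the first experiment. In the second, the site at 2.8 kb is absent or at 22.6 in AAV_Cebpa and at 77.2 and 41.3 in AAV_Null, and the site at 37.1 kb is listed only in AAV_Cebpa replicate 2.

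Around Cebpd, 6 of 9 sites lay on the downstream side. The 3 upstream sites were each found in 1 library, at percentiles of 0.1, 7.2 and 0.7. The site nearest to the gene lay 2.8 kb past its approximate start (chr16:15889683-15889944), close to the approximate gene end at 15890000. It was at 66.1 and 74.7 in Trib1_LSKO, against 84 and 77.1 in Trib1_WT. In AAV_Cebpa it had no peak in replicate 1 and was at 22.6 in replicate 2, against 77.2 and 41.3 in AAV_Null. It held 30 tags in AAV_Cebpa replicate 2, and 61 and 29 in AAV_Null. The part of depth, which differs between these libraries, was not tested.

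Its neighbour 4.1 kb downstream (chr16:15890964-15891205) had a similar distribution at a lower level. It was at 12.8 and 24.9 in Trib1_LSKO against 40.2 and 35.6 in Trib1_WT. Neither AAV_Cebpa list had it, against a peak at 31.9 in AAV_Null replicate 1 and none in replicate 2. The site is therefore not called lost, since only 1 of the 2 control libraries held it.

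The second strong Cebpd site lay 37.1 kb downstream (chr16:15924023-15924273). It was at 69.3 and 74.7 in Trib1_LSKO and 87 and 78.4 in Trib1_WT, which held 91 and 107 tags there. The second experiment showed a peak only in AAV_Cebpa replicate 2, at 32.9, and none in AAV_Cebpa replicate 1 or in either AAV_Null list. The site 55.7 kb downstream (chr16:15942603-15942850) was at 20.8 and 24.9 in Trib1_LSKO and 30.3 and 29.8 in Trib1_WT, and had no peak in the 4 lists of the second experiment. Both sites were thus present in all 4 libraries from floxed mice and in at most 1 of the 4 libraries from wild-type mice. Over the 8 libraries, the pattern of the site 2.8 kb downstream was closest to that of the site 86.4 kb downstream of Cebpb (mean difference of 11.2 points), then to the Cebpd site 37.1 kb downstream (17 points) and the Cebpb site 75.4 kb downstream (19.2 points).

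**Figure D4:**
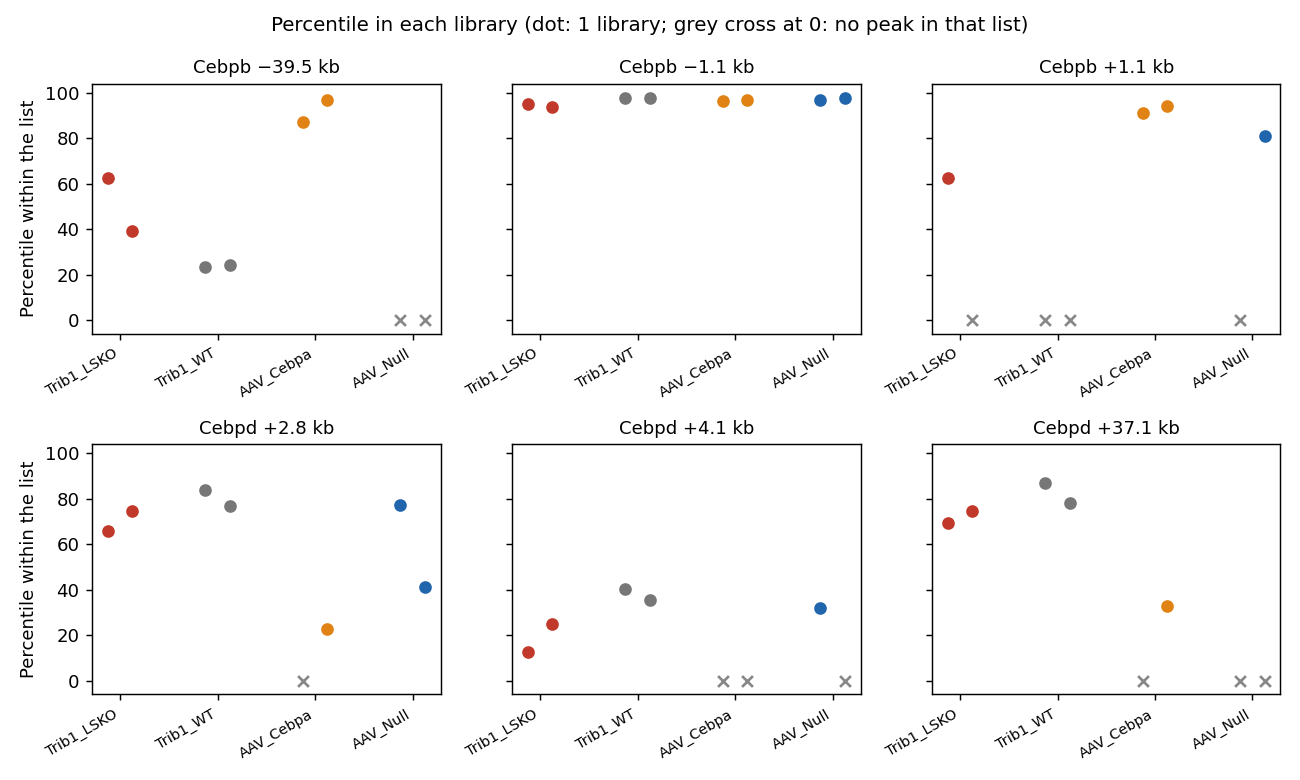
Percentile within the list (vertical axis) in each library of the 4 groups (horizontal axis, 2 libraries each) at 3 sites around Cebpb and 3 around Cebpd, named by distance from the approximate gene start. Each dot is 1 library and a grey cross at 0 marks a list with no peak; the site 39.5 kb upstream of Cebpb is at 87.1 and 96.9 in AAV_Cebpa and absent from AAV_Null, and the site 2.8 kb downstream of Cebpd is absent or at 22.6 in AAV_Cebpa.

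The nearest sites outside the Cebpd window lay 2.8 and 4.6 kb beyond its ends, at percentiles of up to 25.8 and 25.9. Sites farther beyond the ends of either window were not examined. At Cebpb, the site 134.6 kb downstream lay 0.9 kb inside the window, and the nearest site beyond that end, 4 kb away, had peaks in 2 lists at 63.3 and 64.9. In the order of the RefSeq gene table (build GRCm38.p6), the protein-coding genes next to Cebpb are Tmem189 and Ptpn1, and those next to Cebpd are Mzt2 and Spidr. No peak was assigned to any of these genes, since positions of genes in mm9 were not used here.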

How the data were processed

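C/EBPα ChIP-seq of liver was analysed from 8 peak lists in 4 groups of 2 libraries. Per the submitters' processing notes, the authors used Bowtie, HOMER and build mm9; versions, input library, calling threshold and duplicate handling were not given. The deposited lists hold 200 bp peaks with 1 signal value each, scaled per library by the authors. Chromatin was crosslinked in 1% formaldehyde, per the labels' protocols.

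Percentiles were average ranks of signal within a list (Python 3.11.15, pandas 2.3.3, NumPy 2.4.6). Tags are signal divided by the library's step, of which all values were whole multiples within 0.051. Sites join 200 bp windows overlapping by at least 1 bp, over all 8 lists. Joining, calls and step were run on simulated sites that lay far apart, with every peak always called. That check could not show errors at close sites or from missed peaks, and the smallest gap around Cebpb was 0.31 kb. Peak numbers were compared by exact two-sided permutation; single sites were not tested, as 4 libraries allow 6 assignments. No label ties a replicate to an animal, so the spread between replicates may be technical. Percentiles depend on list length and depth.

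Sites named are the 5 strongest per window, the nearest to each gene start, and all gained, lost or without overlap; the site 1.1 kb downstream of the Cebpb start is named outside this rule, after its values were seen. Members, lists and rules were chosen with earlier results of these data known. The motif TGACG was planned with 3 following bases of any kind, and was searched without them. Alternatives were other windows, stricter lists, equal lists, other percentiles, a replicate block and leaving out libraries.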

Additional observations from a re-analysis of the deposited data

How the results depend on the processing

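Of 332 values recomputed under alternatives, 45 moved and 5 changed sign. The other 282 include counts within 1.5 times the reported one, differences of peak number that kept only their direction, and site percentiles within the replicate SD, which can be wide. They also include values that could not change. Peak numbers do not depend on the joining windows, site numbers do not depend on how percentiles are taken, and the replicate block leaves each mean difference as it was. With the strongest 50% of each list, for instance, the peak number difference around Cebpb was -2.0 for Trib1_LSKO and 3.5 for AAV_Cebpa, where the reported values are -4 and 1. The sites then numbered 22 around Cebpb and 2 around Cebpd. Under that setting Trib1_LSKO had 0 gained, 1 lost and 0 higher-ranking sites around Cebpb, 0 lost and 2 lower-ranking ones around Cebpd, and a peak number difference of 0 there. AAV_Cebpa then had 0 gained sites around Cebpd and a peak number difference of -0.5. Windows of 100 or 500 bp moved no count by over 1.5 times. With lists of equal length, 4 sites remained around Cebpd. Trib1_LSKO had 1 gained and 1 lost site around Cebpb, 0 lost around Cebpd and a peak number difference of 0 there. AAV_Cebpa had 2 lost, 3 higher-ranking and 8 lower-ranking sites around Cebpb, 0 gained and 1 lost around Cebpd, and peak number differences of -2.0 (Cebpb) and -1.5 (Cebpd). Genome shares of gained and lost sites were not computed with the strongest 50% or with equal lists.

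Leaving out a library loosens the calls, since the remaining library of its group decides alone. Genome shares under these looser calls were not computed, so the counts have no background. Sites lost in Trib1_LSKO numbered 3 to 6 around Cebpb (6 and 5 without Trib1_WT replicate 1 and 2) and 1 to 2 around Cebpd (2 without Trib1_WT replicate 2). Sites gained numbered 2 to 3 around Cebpb and 0 to 1 around Cebpd (1 without Trib1_LSKO replicate 1). Higher-ranking sites around Cebpb numbered 1 to 2 (2 without Trib1_LSKO replicate 1 or Trib1_WT replicate 2). In AAV_Cebpa, gained sites ranged from 2 to 4 around Cebpb (4 without AAV_Null replicate 1) and from 1 to 4 around Cebpd (4 without AAV_Cebpa replicate 1), lost sites from 0 to 3 around Cebpb (3, 2 and 1 without AAV_Null replicate 1, AAV_Null replicate 2 and AAV_Cebpa replicate 2) and from 0 to 1 around Cebpd (1 without AAV_Cebpa replicate 2 or AAV_Null replicate 2). Peak number differences ranged from -0.5 to 2.5 around Cebpb and from -0.5 to 3.5 around Cebpd. With the replicate number as a block, the peak number differences are the same by arithmetic, since each group has 1 library per number. They were -4.0 and 1.0 around Cebpb and -1.0 and 1.5 around Cebpd for the first and second experiment. The exact permutation p with this block was 0.5 for Trib1_LSKO around Cebpb and 1.0 for the other 3. A p of 0.5 is the smallest that this blocked permutation test can give with 2 blocks. Libraries with the same number shared deviations weakly, with correlations across sites of 0.138 in the first experiment and -0.016 in the second, and nothing in the labels ties them. The settings for percentiles were chosen with the values in view.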

Other observations

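Some absences at these loci were uncommon among sites at least as strong. Each share, here and below, counts all sites at or above the stated percentile, including much stronger ones. Absence among sites of nearly the same percentile was not computed. These cases were picked after the values had been seen, and the shares are descriptions of the lists. Of the 9452 sites at or above percentile 80.9 in AAV_Null replicate 2, the level of the site about 1.1 kb downstream of the Cebpb start, 65 (0.688%) had no peak in AAV_Null replicate 1. Of the 10375 sites at or above 78.4 in both Trib1_WT lists, the level of the site 37.1 kb downstream of Cebpd, 125 (1.2%) had no peak in either AAV_Null list. Of the 33291 sites at or above 29.8 in both Trib1_WT lists, the level of the site 55.7 kb downstream of Cebpd, 974 (2.93%) had no peak in any list of the second experiment.

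Other absences were less rare. Among 11049 sites as strong in both Trib1_WT lists as the site 2.8 kb downstream of Cebpd (at or above 77.1), 553 (5%) had no peak in AAV_Cebpa replicate 1. Among 23862 sites as strong in both AAV_Null lists (at or above 41.3), 3658 (15.3%) had none there. The site 39.5 kb upstream of Cebpb was 1 of 607 sites without a peak in either AAV_Null list among 7304 sites at or above 87.1 in both AAV_Cebpa lists (8.31%). The site 30.6 kb downstream of Cebpb, at or above 67.8 in both Trib1_WT lists, had no peak in either AAV_Cebpa list, as had 729 of 15606 sites (4.67%). However, a neighbouring site 30.2 kb downstream (chr2:167544607-167544862) was at 20.8 and 37.6 in AAV_Cebpa and 31.9 and 11.7 in AAV_Null. That neighbour had no peak in Trib1_LSKO or Trib1_WT. The sites lie so close that this absence depends on the 200 bp windows used for joining, and windows of 500 bp would join them.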
